A study of Bos taurus with 6 samples.

Results

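ARGFX is a homeobox gene of the early embryo. It was picked as a single row out of the 12826 genes counted by RNA-seq in bovine (Bos taurus) blastocysts of day 7 (6 libraries), because its level differed between treated and control libraries. All embryos were produced in vitro from slaughterhouse material, and each library is a pool of embryos. Treatment was with beta-hydroxybutyrate (BHB), which is a ketone body made from fatty acids, for 3 of the libraries, and the 3 control libraries received none. The BHB dose, the exposure time and the size of a pool are not known from the sources used. The comparison asks how this gene is expressed when blastocysts form with the ketone body present. The labels name no breed, genotype or sex.

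Homeobox genes encode transcription factors that bind DNA through a homeodomain. ARGFX belongs to the PRD class, and is named for an arginine in the helix of its homeodomain that reads the DNA bases. With LEUTX, DPRX and the TPRX genes it forms a group that arose in placental mammals by duplication of a gene of the CRX and OTX family. In human embryos these genes are transcribed around the activation of the embryonic genome and in the cleavage stages that follow, and ARGFX has no functional copy in the mouse. By the blastocyst stage the embryo holds an outer trophectoderm, which will form the placenta, and an inner cell mass, which divides into epiblast and primitive endoderm.

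Total counts ran from 6440732 to 8176648 per library. Levels are given as CPM, that is counts scaled to a fixed total, on library sizes scaled by TMM, the normalization of edgeR. The labels give no replicate numbers, so libraries 1 to 3 of a group are in the order of deposit. A control and a BHB library with the same number are called a pair, because a refit of the authors' own test with those partners gave their deposited p-values, as described under the processing. The labels do not say whether pools are independent cultures. Any p-value thus measures the spread between these libraries. Among the genes of the table were 18 of 22 trophectoderm markers, 16 of 22 inner cell mass and epiblast markers and 15 of 21 primitive endoderm markers. The epiblast gene SOX2 and the primitive endoderm gene SOX17 were not in it. Presence in the table alone cannot test the labelled stage, since all libraries are of day 7.

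ARGFX was detected in every library, with 130, 210 and 369 counts in control libraries 1 to 3 and 422, 315 and 548 counts in BHB libraries 1 to 3. As levels, these were 17.4, 27.8 and 43.3 CPM in the controls and 56.9, 43.6 and 79.9 CPM with BHB. The mean was 29.5 ± 13.1 CPM (SD, n = 3) in control and 60.1 ± 18.4 CPM (SD, n = 3) in BHB libraries. In pools of whole embryos, more cells that express the gene and more of its RNA per cell cannot be told apart. In ascending order of level, control 1 was followed by control 2, control 3, BHB 2, BHB 1 and BHB 3.

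The groups met in the middle of that order. Exact 95% Clopper-Pearson intervals, which cover counting error only, were 39.0 to 48.0 CPM for control 3 and 38.9 to 48.7 CPM for BHB 2, so these neighbours in the order cannot be told apart. With scaling by library totals alone their order turned, to 45.1 CPM in control 3 and 43.5 CPM in BHB 2, and the groups then overlapped. For all other neighbours in the order the counting intervals did not touch, libraries of the same group included. The highest control was 2.50 times the lowest, and the highest BHB library 1.83 times the lowest.

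**Figure D1:**
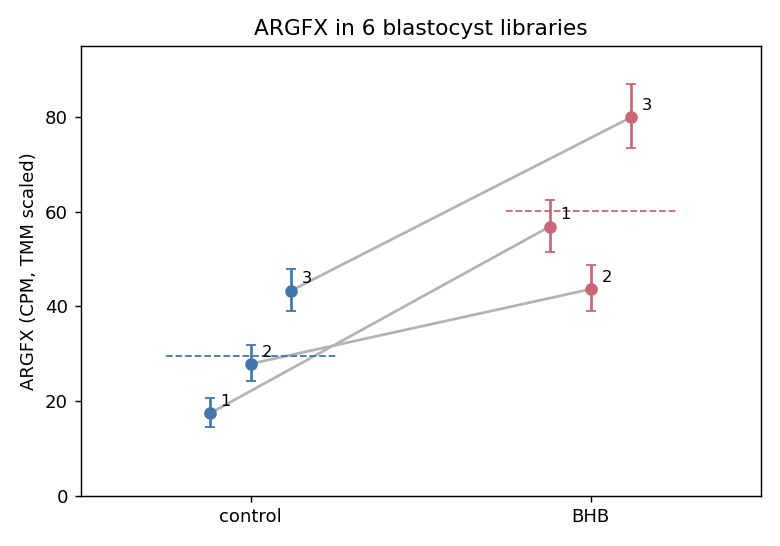
ARGFX level in CPM (vertical axis, linear from 0) in 3 control and 3 BHB libraries. Points are libraries numbered by pair, bars are exact 95% intervals of counting error, grey lines join pairs and dashed lines are group means. The BHB library is the higher one in each of the 3 pairs, while control 3 (43.3 CPM) and BHB 2 (43.6 CPM) are at nearly the same level.

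Within pairs the BHB library had more ARGFX each time. In pair 1 the level was 3.27 times that of the control (95% interval of counting error 2.68 to 4.02). The ratio was 1.57 (1.31 to 1.88) in pair 2 and 1.85 (1.61 to 2.11) in pair 3. The interval of pair 1 lies above those of the other pairs, and pair 1 also held the control with the lowest level. As differences, the BHB libraries were higher by 39.5, 15.8 and 36.6 CPM, so pairs 1 and 3 were alike on the linear scale and pairs 2 and 3 on the ratio scale.

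The fit across all 12732 tested genes gave ARGFX a log2 fold change of 1.02 (SE 0.33) for BHB over control without the pairs. With the pair as a block the estimate was 1.07 with an SE of 0.20 in edgeR and of 0.23 in DESeq2. The authors' deposited table holds a log2 fold change of 1.07 for this gene once its sign is turned to BHB over control, with an error of 0.23. These values come from the contrast by which the gene was chosen and are given without a test. For the same reason, the fact that DESeq2 with the block called ARGFX among 0.273% of all genes (35 of 12826) is a description of how it was picked. Of the tested genes, 55 (0.432%) had a smallest pair difference at least as large as that of ARGFX, with only differences towards higher levels with BHB counted. This share too describes how the gene was picked.

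ARGFX was variable among libraries of a group. Its SD within groups was 0.56 on the log2 CPM scale, against a median of 0.22 for the 1000 tested genes of nearest mean level, of which 94.7% had a smaller SD. Of the variance of its log2 CPM over the 6 libraries, 31.4% went with the pair, 58.3% with treatment and 10.3% was left. The medians over all tested genes were 53.5%, 10.8% and 23.8%. These shares are descriptive, and that of treatment is part of why the gene was chosen.

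None of LEUTX, DPRX, TPRX1, TPRX2 and TPRX3, the genes grouped with ARGFX above, was in the table by name. A wider list of 19 homeobox genes known from early embryos, ARGFX left out and not limited to that group, had 7 members in the table. CRX, DUXB and DUX4 were also among the 12 that were not, and OTX1 was too low to be tested. Of the 6 tested members none passed edgeR's quasi-likelihood test with Benjamini-Hochberg adjustment at 0.05, as for all genes (0%). One, NANOG, was under an unadjusted p of 0.05, as were 2.73% of all genes. DESeq2 with the pair as a block called 1 of them, NANOG, as lower, where it called 0.14% of all genes lower. The median log2 fold change of the 6 was 0.02, against -0.005 over all tested genes, and 3 of the 6 were positive, against 49.1% of all genes.

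DUXA is a double homeobox gene that is also transcribed at genome activation in human embryos. It was at 3.74, 6.89 and 6.81 CPM in controls and 17.1, 4.02 and 10.1 CPM with BHB. BHB 2 lay among the controls, so the groups overlapped, and the pair differences were 2.12, -0.74 and 0.55 on the log2 CPM scale. Its log2 fold change was 0.84 (SE 0.49, adjusted p = 0.999 in edgeR). DUXA and ARGFX both had their widest pair difference in pair 1, and both were lower in BHB 2 than in the other BHB libraries.

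OTX2, a PRD class factor from the family from which ARGFX arose, was at 57.6, 124 and 125 CPM in controls and 67.5, 128 and 121 CPM with BHB. Both libraries of pair 1 were low, and treatment made little difference within any pair (0.23, 0.03 and -0.04 on the log2 scale). Its log2 fold change was 0.04 (SE 0.32, adjusted p = 0.999 in edgeR), and its SE leaves room for a change in either direction. OTX1, the related gene, had 6 to 14 counts per library.

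NANOG, a homeobox factor of the pluripotent epiblast, went the other way from ARGFX. It was at 72.4, 60.7 and 73.4 CPM in controls and 30.7, 33.4 and 51.2 CPM with BHB. All 3 BHB libraries were below all controls, which was so for 3.78% of tested genes. The log2 fold change was -0.84 (SE 0.21, adjusted p = 0.999 in edgeR), and with the pair as a block DESeq2 called it lower (-0.87, adjusted p = 0.0089). The block in edgeR did not call it (adjusted p = 0.183), and DESeq2 with the block called 0 of the listed homeobox genes when pair 1 or pair 2 was left out. NANOG was known from earlier results of these data, so this is no independent support. The number of ARGFX counts for each NANOG count, which does not depend on library scaling, was 0.24, 0.459 and 0.59 in controls and 1.85, 1.31 and 1.56 with BHB. The ratio was thus below 1 in every control and above 1 in every BHB library. ARGFX was chosen as higher with BHB and NANOG was known to be lower, so this separation comes with the choice. With OTX2 as the reference the groups overlapped (0.347 in control 3 and 0.342 in BHB 2). They also overlapped with DUXA (6.36 in control 3 and 3.32 in BHB 1).

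POU5F1, the pluripotency factor also called OCT4, gave a steadier reference. It was at 309, 289 and 278 CPM in controls and 279, 323 and 268 CPM with BHB (log2 fold change -0.01, SE 0.13, adjusted p = 0.999 in edgeR). ARGFX counts per POU5F1 count were 0.0562, 0.0963 and 0.156 in controls and 0.204, 0.135 and 0.298 with BHB. Set against this gene, BHB 2 was below control 3 and the groups overlapped.

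CDX2, which specifies trophectoderm, was at 6.81, 3.71 and 5.87 CPM in controls and 9.83, 4.29 and 6.27 CPM with BHB. It was higher with BHB in 3 of 3 pairs, as were 14.5% of tested genes, with overlapping groups and a log2 fold change of 0.32 (SE 0.39, adjusted p = 0.999 in edgeR). HESX1, a PRD class repressor, had 18, 5 and 16 counts in controls and 17, 2 and 4 with BHB. At that depth its log2 fold change of -0.63 (SE 0.77, adjusted p = 0.999 in edgeR) separates little.

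**Figure D2:**
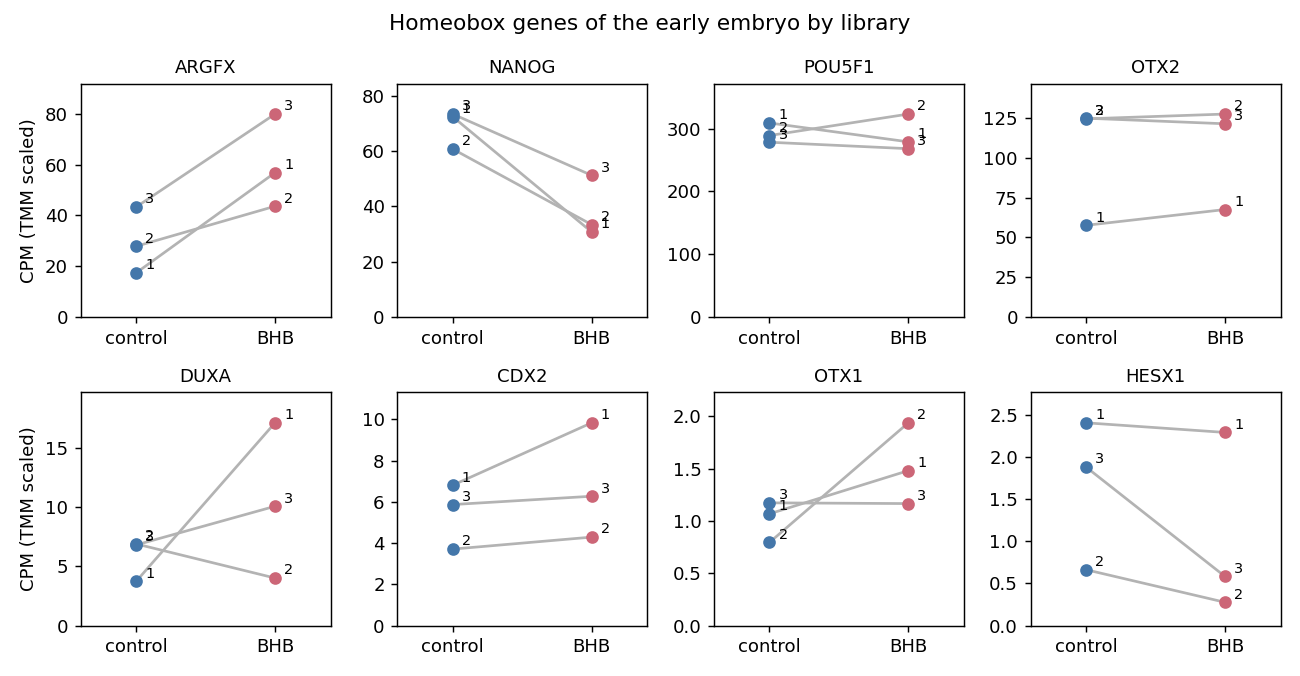
Levels in CPM (vertical axes, linear from 0, a scale for each gene) of ARGFX and the 7 other homeobox genes of the list found in the table. Points are libraries numbered by pair, control in blue and BHB in red, and grey lines join pairs. ARGFX is higher and NANOG lower with BHB along all 3 lines, while DUXA goes both ways and OTX2 separates pair 1 from the others.

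Other homeobox genes showed no common shift. Of 123 listed, 52 were in the table and 51 were tested. Of these, 27 were positive, against 49.1% of all genes, and the median log2 fold change was 0.02. None passed in edgeR, as for all genes (0%), and none had an unadjusted p under 0.05 in it, as had 2.73% of all genes. DESeq2 with the block called 0, against 0.273% of all genes. It gave some members of low counts, ZEB2 among them, no adjusted p, so those could not be called. In 10 of the 51 the BHB library was higher in 3 of 3 pairs and in 5 lower, against 14.5% and 15.7% of all tested genes. Those with the smallest p were ZEB2, a zinc finger homeobox repressor (log2 fold change -2.03, SE 0.97), and ONECUT2 (-0.80, SE 0.45), each with adjusted p = 0.999 in edgeR. In DESeq2 with the block ZEB2 had a log2 fold change of -2.735 (SE 0.99, unadjusted p = 0.0057). The ZEB2 values rest on few reads, with 6, 32 and 31 counts in controls and 0, 13 and 2 with BHB.

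Genes of embryonic genome activation, the stage with which ARGFX is linked in human embryos, were also near the centre. Of 30 listed, 18 were tested. Of these, 10 were positive, against 49.1% of all genes, and the median log2 fold change was 0.03. None passed in edgeR or in DESeq2 with the block, which called 0% and 0.273% of all genes. In edgeR 1 had an unadjusted p under 0.05, as did 2.73% of all genes. That gene was KLF17, a zinc finger factor of the early embryo, at 15.4, 17.9 and 22.3 CPM in controls and 34.2, 24.2 and 33.0 CPM with BHB. Its groups did not overlap, as in 4.06% of tested genes on the higher side, and its log2 fold change was 0.72 (SE 0.22, adjusted p = 0.999 in edgeR and 0.374 in DESeq2 with the block). KLF17 resembled ARGFX in that control 1 was lowest, BHB 2 the lowest of the BHB libraries and pair 1 the pair with the widest difference. TFAP2C, a factor of trophectoderm and genome activation, had a log2 fold change of 0.37 (SE 0.18, adjusted p = 0.999 in edgeR).

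The cell types of the pools were read from the summed CPM of marker lists. The 16 inner cell mass and epiblast markers summed to 1698 to 1733 CPM in controls and 1592 to 1898 CPM with BHB, with a median log2 fold change of 0.13. NANOG was the 1 member that DESeq2 with the block called. The 15 primitive endoderm markers summed to 1291 to 1708 CPM in controls and 1284 to 1599 CPM with BHB (median -0.04). Those with the smallest p were COL4A2, a basement membrane collagen (0.62, SE 0.27), and GATA4 (2.40, 1.99 and 3.17 CPM in controls and 1.08, 1.80 and 0.875 CPM with BHB), each with adjusted p = 0.999 in edgeR.

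The trophectoderm sum ran in part against ARGFX across libraries. The 18 markers summed to 20740, 19740 and 13820 CPM in control libraries 1 to 3 and to 17990, 15910 and 10810 CPM in BHB libraries 1 to 3. Control 1 had the highest sum and the lowest ARGFX, and BHB 3 the lowest sum and the highest ARGFX. The order was not the inverse throughout: BHB 1 had both a higher sum and more ARGFX than BHB 2, and control 3 had a lower sum than both but no more ARGFX. The sum was lower with BHB in 3 of 3 pairs, and ARGFX was higher in each. The keratins KRT8 and KRT18 made up 70.3 to 80.4% of this sum. None of the 18 markers passed in edgeR or in DESeq2 with the block, which called 0% and 0.273% of all genes. Their median log2 fold change was -0.07, and 7 of the 18 were positive, against 49.1% of all genes. With BHB, 5 were higher and 6 lower in 3 of 3 pairs, against 14.5% and 15.7% of all tested genes. The smallest p in edgeR without the block were those of KRT19 (-0.82, SE 0.37, adjusted p = 0.999) and TFAP2C, which was higher with BHB (0.37, SE 0.18, adjusted p = 0.999). In DESeq2 with the block they were those of KRT8 (-0.39, SE 0.11, adjusted p = 0.0635), KRT18 (-0.39, SE 0.11, adjusted p = 0.0967) and the desmosome gene DSP (-0.53, SE 0.16, adjusted p = 0.15), each lower with BHB in 3 of 3 pairs. Any part of the makeup of the pools in the ARGFX values was not tested.

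Some markers of other cells that a pool could hold were in the table, in part with sums that reached the level of ARGFX. Of 17 oocyte markers 3 were in the table, with sums of up to 24.1 CPM in any library; GDF9, BMP15 and ZP2 were not in it. For ZP3 the log2 fold change was 0.32 (SE 0.66) and for OOEP 0.02 (SE 0.30). Of 15 cumulus and granulosa cell markers 3 were in the table (29.6 to 37.5 CPM in controls and 28.2 to 35.3 CPM with BHB), with FSHR at -0.28 (SE 0.23) and CYP19A1 at 0.31 (SE 0.27). Of 10 blood cell markers 2 were in it (4.51 to 8.42 and 7.06 to 9.43 CPM), CD68 at 0.45 (SE 0.41) and ALAS2 at 0.23 (SE 0.36). Of 8 sperm markers 4 were in it (25.9 to 50.1 and 20.8 to 30.9 CPM), among them CRISP2 at -0.60 (SE 0.32) and PRM1 at 0.58 (SE 0.60). CRISP2 was at 45.7 CPM in control 1, where ARGFX was at 17.4 CPM, and at 15.2 to 21.3 CPM in the other libraries. None of these genes passed in edgeR, as for all genes (0%). Their part in the ARGFX values was not tested.

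The genes beside ARGFX on the chromosome were compared to see whether the locus moved as a block. Neighbours were taken by name from the ARS-UCD2.0 gene table, 5 protein-coding genes on each side. The sources used name no build for the counts, so no coordinates are stated. No annotated gene in that table overlaps ARGFX, and 1 symbol in it begins with ARGFX; copies that carry only a LOC number could not be recognised by name. Of the 10 neighbours, 7 were in the count table and tested. HGD, FBXO40 and HCLS1 were not in it. None of the 7 passed in edgeR or in DESeq2 with the block, and none had an unadjusted p under 0.05 in edgeR. Over all genes these shares were 0%, 0.273% and 2.73%, so a lack of calls among 7 genes says little about the locus.

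POLQ, the DNA polymerase theta gene and the nearest neighbour measured, was at 43.3, 78.8 and 63.6 CPM in controls and 62.0, 53.9 and 75.7 CPM with BHB. It was lower with BHB in pair 2 and higher in the other pairs, and its log2 fold change was 0.04 (SE 0.23, adjusted p = 0.999 in edgeR). On the other side the nearest one measured was GOLGB1, which encodes the Golgi protein giantin (-0.18, SE 0.14, adjusted p = 0.999 in edgeR).

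IQCB1, a gene of a ciliary protein, was the neighbour whose values ran closest to those of ARGFX. It was at 34.9, 39.5 and 54.1 CPM in controls and 45.3, 50.8 and 71.6 CPM with BHB, higher within each pair by 0.37, 0.36 and 0.40 on the log2 CPM scale. The groups overlapped, since control 3 exceeded BHB 1 and BHB 2, and the log2 fold change was 0.38 (SE 0.23, adjusted p = 0.999 in edgeR). In DESeq2 with the block IQCB1 had an unadjusted p of 0.038 and an adjusted p of 0.866. Across the 6 libraries its Pearson correlation with ARGFX was 0.893, which describes these libraries alone. GTF2E1, a subunit of the basal transcription factor TFIIE, was also higher in 3 of 3 pairs but by at most 0.06. The others had log2 fold changes of -0.64 (SE 0.35) for STXBP5L, -0.02 (SE 0.16) for RABL3 and 0.18 (SE 0.34) for EAF2, with directions that differed between pairs.

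**Figure D3:**
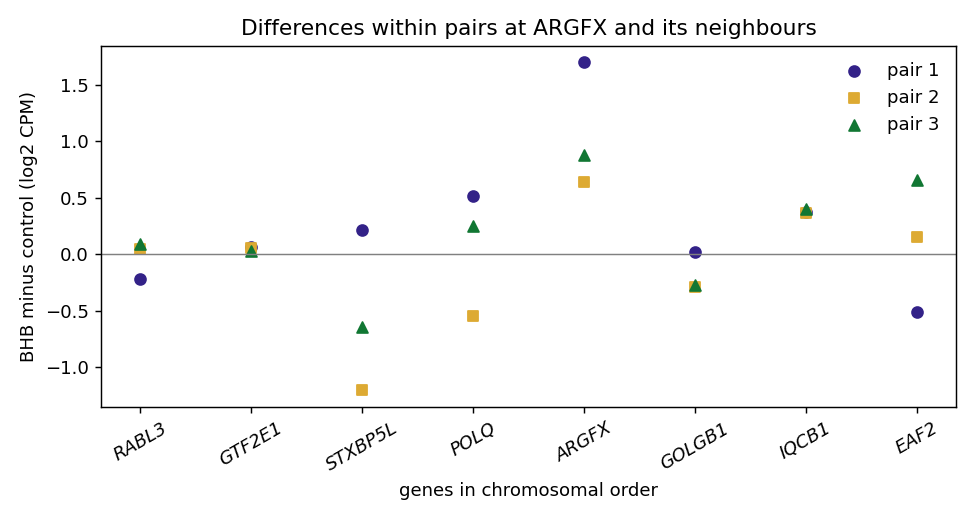
Difference of BHB minus control in log2 CPM (vertical axis) in pairs 1, 2 and 3 for ARGFX and the 7 measured neighbours, in the order of the ARS-UCD2.0 gene table. ARGFX (1.70, 0.64 and 0.88) and IQCB1 (0.37, 0.36 and 0.40) are above 0 in all pairs, as is GTF2E1 by less than 0.07. POLQ, STXBP5L, EAF2, RABL3 and GOLGB1 lie on both sides of 0.

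The genes most like ARGFX were found by Pearson correlation of log2 CPM over the 6 libraries among 10904 tested genes with a symbol and a mean log2 CPM of at least 1. Of these, 127 (1.16%) had a correlation of at least 0.9 and 146 of at most -0.9. The points share depth and scaling, and a match over 6 points includes the treatment contrast, so no test is given. The 10 highest correlations ran from 0.978 to 0.994. All 10 genes were higher with BHB in 3 of 3 pairs, as were 14.5% of all tested genes. They were picked for likeness to ARGFX, itself higher in 3 of 3 pairs, so this direction comes with the choice.

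MRTO4, a ribosome assembly factor, came first (0.994) but with a narrow range, at 41.8, 46.4 and 51.2 CPM in controls and 55.4, 50.1 and 59.7 CPM with BHB. CXHXorf67, whose human counterpart is EZHIP, an inhibitor of the histone methylating complex PRC2, followed (0.991) with a wide one. It was at 0.267, 0.663 and 2.70 CPM in controls and 4.18, 2.22 and 7.00 CPM with BHB. Its levels in control 1 and control 2 were near the floor, so the width of this range is uncertain. For CXHXorf67, BHB 2 lay below control 3, and the log2 fold change was 1.84 (SE 0.73). CPOX, an enzyme of haem synthesis (0.981), was at 4.94, 7.82 and 11.6 CPM in controls and 15.8, 11.1 and 16.2 CPM with BHB.

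Among the rest, SPIN2B, of the spindlin family of histone readers (0.983), and APH1B, a subunit of gamma-secretase (0.981), had groups that did not overlap, with log2 fold changes of 0.66 (SE 0.25) and 0.52 (SE 0.24). PRELID2, MXD1, a repressor in the MYC network, the forkhead factor FOXP1 and the splicing factor SMNDC1 had smaller ones, of 0.26, 0.38, 0.29 and 0.14. The 5 lowest correlations, -0.976 to -0.993, were those of the deubiquitinase USP9X, ENOPH1 of methionine salvage, the tubulin TUBB4A, the ribosomal protein gene RPL7 and SUMF2. RPL7 has processed pseudogenes, so its reads could be split. SUMF2 had the widest range of these, at 17.4, 12.5 and 9.16 CPM in controls and 8.49, 9.97 and 5.11 CPM with BHB.

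The choice of the 10 rested on each library. When 1 library was left out, 1 to 4 of the 10 were among the 10 highest again, with the fewest without BHB 1. Over the homeobox genes of the list, the correlation with ARGFX was 0.678 for DUXA, 0.428 for OTX2, 0.412 for OTX1, 0.261 for CDX2, -0.315 for HESX1, -0.527 for NANOG and -0.598 for POU5F1. None of these reached 0.9 in size.

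**Figure D4:**
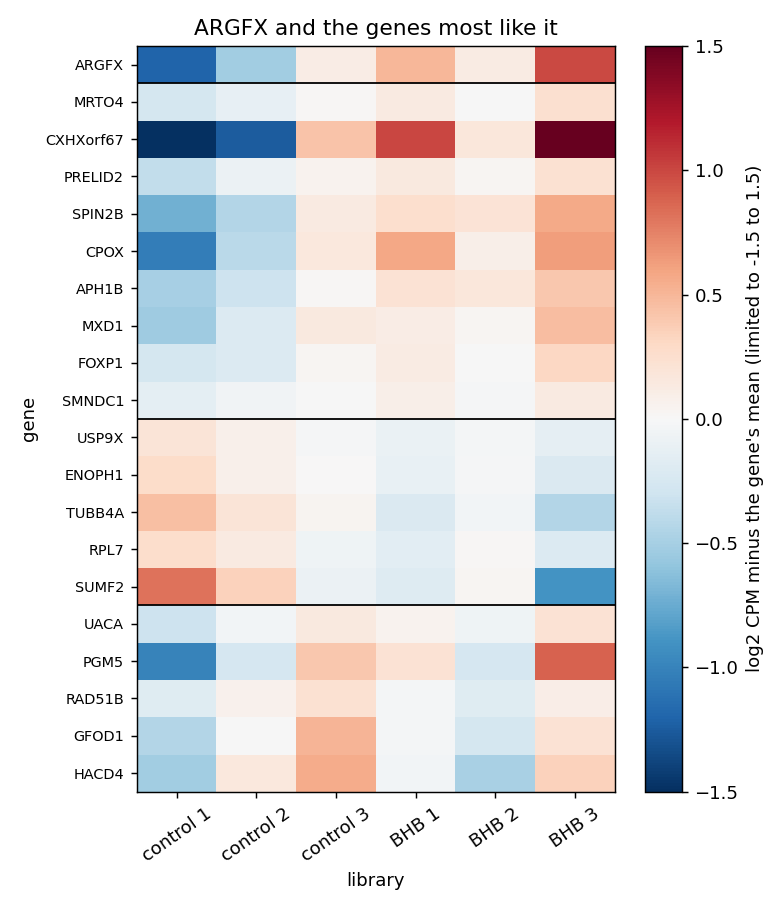
Log2 CPM of each gene minus its mean over the 6 libraries (colour, cut off at the ends of the scale) for ARGFX, 9 of the 10 genes with the highest correlation, the 5 with the lowest and 5 picked on deviations from the group means. ARGFX and CXHXorf67 span a wide range from control 1 to BHB 3, the latter from levels near the floor. MRTO4 and SMNDC1 are likewise lowest in control 1 and highest in BHB 3, over a narrow range.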

How the data were processed

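The authors deposited whole-number counts per gene for 6 libraries and a table of their own comparison, with p-values, a test statistic (a score), a log2 fold change and its error, and the mean scaled count (a linear signal). The submitters' processing notes name STAR, featureCounts and DESeq2, without versions. Build, annotation, strand setting and the handling of multiply mapped reads are not stated in the sources used. Per the labels' protocols, polyadenylated RNA was made into libraries with a stranded kit and sequenced as paired ends in 1 lane.

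Counts were scaled by TMM, filtered by filterByExpr (12732 of 12826 genes left; no gene had fewer than 38 counts in all) and tested with edgeR 4.0.16 (quasi-likelihood F test, no covariate, R 4.3.3). The SE is the log2 fold change divided by the root of F. DESeq2 1.42.0 (on all genes) and limma 3.58.1 (voom) were alternatives. DESeq2 with the block gave no adjusted p to some genes of low counts, such as HESX1, GATA4 and HAND1, so these could not be called. They still count in the 12826. Correlations used a prior count of 2. Scripts were tested on simulated data. ARGFX and the gene lists were chosen with earlier results of these data known; listed and like genes were named by rules on p and correlation, and ARGFX-like genes chosen this way carry no test. A gene that this rule takes is not reported here.

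A DESeq2 likelihood ratio test of pair and treatment against neither gave the authors' deposited p-value within 1e-06 in 99.98% of genes with libraries of the same number as partners, and in at most 0.398% with any other partners. Deviations from group means correlated over genes at 0.462, 0.322 and 0.329 within the 3 pairs and at -0.299 to -0.00403 between them.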

Additional observations from a re-analysis of the deposited data

How the results depend on the processing

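The ARGFX difference kept its direction in every fit: 1.02 to 1.08 on the log2 scale under other scalings, filters and tools, 0.757 (without control 1) to 1.41 (without control 3) with 1 library left out, and with the pair as a block 0.765 without pair 1 to 1.28 without pair 2. Each fit that leaves out 1 library keeps its partner. Over all 12732 genes edgeR called 0 (347 had an unadjusted p under 0.05), as did limma-voom. DESeq2's Wald test called 6, and 1 gene, CAMK1D (named after its values were seen), passed in edgeR without BHB 2. With the replicate block edgeR called 0, while DESeq2 called 35 genes, including 1 member of the homeobox list and 1 of the other lists, both of them NANOG. Without 1 pair, an alternative chosen after seeing the data, the latter called 12 to 15 genes, with 0 to 1 in each list. Without pair 1 the 1 call in the other lists was not NANOG, since the homeobox list, which holds NANOG, had 0. None of the 7 neighbours passed in any fit. Of the 10 genes most like ARGFX, 6 were again among the 10 highest with library totals alone, 2 on deviations from the group means, 1 by Spearman correlation and 1 to 4 without 1 library. Depth limits genes such as HESX1, which had 2 counts in BHB 2 and 4 in BHB 3.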

Other observations

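With the group means taken out, the genes whose deviations ran closest to those of ARGFX over the 6 libraries were UACA, PGM5, RAD51B, GFOD1 and HACD4, with correlations of 0.991 to 0.997. They differed from ARGFX in the comparison of BHB with control, since none of the 5 moved in 1 direction in all pairs. PGM5, a relative of phosphoglucomutase found at cell adhesions, was at 15.9, 26.8 and 42.4 CPM in controls and 37.2, 26.7 and 59.5 CPM with BHB. In the controls it lay close to the ARGFX levels, and in pair 2 its BHB and control libraries were level. RAD51B, which acts in repair of DNA by recombination, was at 22.3, 26.6 and 29.9 CPM in controls and 24.9, 22.3 and 27.3 CPM with BHB, with a log2 fold change of -0.08 (SE 0.19).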
